A study of Mus musculus with 6 samples.

Results

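The IgLON genes Opcml, Ntm, Lsamp and Negr1 were examined as targets of PTBP1 and PTBP2 in lists of crosslinked RNA intervals from mouse cortex. The members are the distinct intervals (unique chromosome, strand, start and end) whose midpoint lay in 1 of 4 loci of the mm9 genome build. The loci were chr9 from 27.6 to 28.73 Mb on the plus strand for Opcml, chr9 from 28.81 to 29.78 Mb on the minus strand for Ntm, chr16 from 39.98 to 42.18 Mb on the plus strand for Lsamp and chr3 from 156.23 to 156.97 Mb on the plus strand for Negr1. The 4 loci covered 5.04 Mb and held 41772 of the 940882 distinct intervals of the 6 lists together (4.44%). Of the members, 24511 lay in Opcml, 3793 in Ntm, 11909 in Lsamp and 1559 in Negr1. The loci were chosen by the number of intervals seen in these same lists, so their levels are given as a description, with no test. Their ends are those of the rule and not of a gene model: the genome and gene models at hand were of another build, and no exon, intron or sequence is given.

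IgLON proteins are small cell adhesion molecules of the immunoglobulin superfamily that are anchored to the outer surface of neurons by a lipid (GPI) anchor and bind one another between and along cell membranes. Opcml encodes OBCAM, Ntm neurotrimin, Lsamp the limbic system-associated membrane protein and Negr1 kilon (neurotractin), and all 4 are known for roles in neurite outgrowth and synapse formation. PTBP1 and PTBP2 bind pyrimidine-rich stretches of RNA, many of them in introns, and control splicing. PTBP1 prevails in neural progenitors, and PTBP2 takes its place as neurons form.

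All libraries came from the nuclear fraction of cerebral cortex of BL6/129Sv mice at postnatal day 1. FLAG-PTBP1 was precipitated in 1 library from Rosa-PTBP1 Emx1-cre cortex homozygous for PTBP2 loxP alleles (FLAG loxP) and in 1 from Rosa-PTBP1 Emx1-cre cortex (FLAG Rosa-PTBP1). PTBP2 was precipitated in 1 library from Rosa-PTBP1 Emx1-cre cortex (PTBP2 Rosa-PTBP1) and in 1 from wild-type cortex (wild-type PTBP2). FLAG antibody on wild-type cortex, which has no FLAG-PTBP1, gave 2 background libraries (wild-type FLAG 1 and 2). The Rosa-PTBP1 transgene encodes PTBP1 with a FLAG tag. The Emx1 promoter drives cre in the dorsal forebrain lineage that gives cortical excitatory neurons and glia, so other cells of the same cortex, such as interneurons, need not carry recombined alleles. Every Rosa-PTBP1 library also carried Emx1-cre, and its comparison with wild type differs by both. The labels do not say whether the wild-type FLAG libraries came from separate animals, and fewer cells and less bound RNA per cell cannot be told apart in bulk tissue.

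The lists held 265953 distinct intervals in FLAG loxP, 351602 in FLAG Rosa-PTBP1, 74416 in PTBP2 Rosa-PTBP1, 155447 in wild-type PTBP2, 88327 in wild-type FLAG 1 and 26665 in wild-type FLAG 2. Overlapping or touching intervals of a list were merged into sites, and a site of 5 or more intervals is called stacked. Wild-type FLAG 1 stood apart, since 85.8% of its sites were single intervals, against 15.1% to 46.2% in the other libraries. Chromosome 9 was nearly empty in PTBP2 Rosa-PTBP1, with 206 sites, against 561 to 4189 in the other libraries, so Opcml and Ntm enter no comparison with that library. Read names placed FLAG loxP, FLAG Rosa-PTBP1 and wild-type FLAG 2 on sequencing run WA047, and the other 3 lists on runs XA041 and XB028. Every group except wild-type FLAG held 1 library, and no test between groups was run. Intervals in brackets are 95% intervals for counting error only, and reads without molecular identifiers are not independent molecules.

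Opcml was the most densely covered locus of both FLAG-PTBP1 libraries and of wild-type PTBP2. It held 8324 intervals per Mb in FLAG loxP, 10899 in FLAG Rosa-PTBP1, 6.19 in PTBP2 Rosa-PTBP1, 2435 in wild-type PTBP2, 407 in the first wild-type FLAG library and 50.4 in the other. Lsamp held 1604, 2370, 405, 836, 282 and 15.9 intervals per Mb in the same order of libraries. Per Mb, Lsamp was thus the densest of the 4 loci in PTBP2 Rosa-PTBP1, where chromosome 9 was nearly empty, and Opcml was the densest in each of the other 5 libraries. Ntm held 1118, 2084, 1.03, 421, 269 and 47.4 intervals per Mb. Negr1 held 492, 1095, 141, 250.0, 154 and 0. Negr1 was the sparsest locus in all libraries except PTBP2 Rosa-PTBP1.

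**Figure D1:**
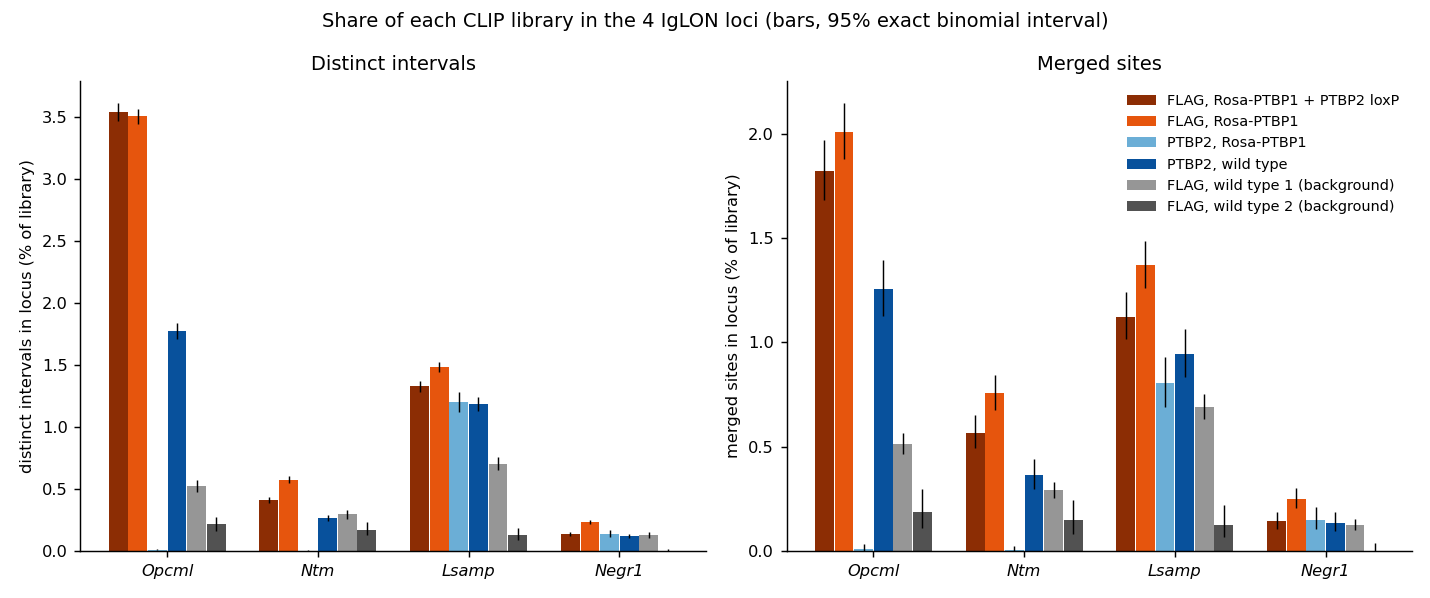
Share of each library's distinct intervals (left) and merged sites (right) in each locus, in percent of all chromosomes, with exact binomial 95% intervals for counting error. FLAG loxP, FLAG Rosa-PTBP1 and wild-type PTBP2 stand above both wild-type FLAG libraries in Opcml and Lsamp. In Negr1 the intervals of FLAG loxP and both PTBP2 libraries overlap that of wild-type FLAG 1, and in Ntm that of wild-type PTBP2 does.

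As a share of all intervals, the 4 loci together took 5.41% in FLAG loxP, 5.79% in FLAG Rosa-PTBP1, 1.35% in PTBP2 Rosa-PTBP1, 3.33% in wild-type PTBP2, 1.65% in wild-type FLAG 1 and 0.518% in wild-type FLAG 2. Opcml alone made up 65.4%, 60.5%, 0.697%, 53.1%, 31.6% and 41.3% of these IgLON intervals. The Opcml portion was thus lower in both background libraries than in the 3 PTBP libraries with a filled chromosome 9. The loci held 793 stacked sites in FLAG loxP, 1233 in FLAG Rosa-PTBP1, 50 in PTBP2 Rosa-PTBP1 and 375 in wild-type PTBP2, against 5 in wild-type FLAG 1 and 6 in wild-type FLAG 2. Over the whole lists stacked sites numbered 17571, 24241, 2960, 9652, 402 and 857 in the same order of libraries. Stacking also follows depth, and wild-type FLAG 1, with more distinct intervals than PTBP2 Rosa-PTBP1, had fewer stacked sites in these loci, as in its whole list.

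Every interval in the 4 loci lay on the strand named in the rule. The opposite strand held 0 intervals in all 6 lists, whereas 2234 of 13049 100-kb windows with intervals across the genome (17.1%) held both strands. Opcml and Ntm neighbour each other in opposite orientation, and the change of strand between 28.73 and 28.81 Mb was sharp in these lists. Just inside the low end of Ntm the first 100 kb held 81 intervals, against 2 in the 100 kb below it, both in wild-type FLAG 2. Beyond the high, 5′ end of Ntm the last 100 kb inside held 755 intervals and the 100 kb outside held 0, and the next minus-strand interval began at 30764771. Around Opcml the low, 5′ end had 5719 intervals in the first 100 kb inside and 363 in the 100 kb outside. All 363 lay between 27599091 and 27599992, right against the boundary, with 160 in FLAG loxP, 171 in FLAG Rosa-PTBP1 and 32 in wild-type PTBP2. The high end of Opcml had 670 intervals inside and 1 outside. Lsamp had 322 inside and 0 outside its low end, and 27 inside and 1 outside its high end. Negr1 had 1241 inside and 29 outside its low end, and 21 inside and 1 outside its high end. The boundaries thus left few intervals outside, apart from the cluster just before Opcml.

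Opcml was covered most in its 5′ part. Each locus was cut into 5 equal segments from its 5′ end. Segment 2 held 60.6% of the Opcml intervals in FLAG loxP, 51.5% in FLAG Rosa-PTBP1, 39.5% in wild-type PTBP2, 33.3% in wild-type FLAG 1 and 15.8% in wild-type FLAG 2. Segment 1 held 22.8%, 26.1%, 35.2%, 23.5% and 12.3% in the same libraries. Both FLAG-PTBP1 libraries, wild-type PTBP2 and wild-type FLAG 1 thus had most of their Opcml intervals in the first 2 segments, and wild-type FLAG 2 did not, with 56.1% of its 57 intervals in segment 3. The 20-kb bin with most sites lay 320 to 340 kb from the 5′ end in FLAG loxP (59 sites), and 60 to 80 kb from it in FLAG Rosa-PTBP1 (64), wild-type PTBP2 (50) and wild-type FLAG 1 (26). The window from 27.9 to 28 Mb held 163 sites in FLAG loxP, rank 2 of 6879 windows of that library, and 166 in FLAG Rosa-PTBP1, rank 5 of 6709. In wild-type PTBP2 the window from 27.6 to 27.7 Mb led the locus with 81 sites, rank 9 of 8016.

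Ntm, which encodes neurotrimin, was covered at lower density, with most intervals in segments 1 and 4. Segment 1 held 32.6% of its intervals in FLAG loxP, 31.9% in FLAG Rosa-PTBP1, 38.2% in wild-type PTBP2 and 24.1% in wild-type FLAG 1. Segment 4 held 27.4%, 28.6%, 31.1% and 27.6%. The last segment before the 3′ end held 2.03%, 3.32% and 1.72% in FLAG loxP, FLAG Rosa-PTBP1 and wild-type PTBP2, against 14.2% in wild-type FLAG 1. Its leading window was 29.1 to 29.2 Mb, with 50 sites in FLAG loxP, 74 in FLAG Rosa-PTBP1, 22 in wild-type PTBP2 and 45 in wild-type FLAG 1. Per 1000 sites of the library these were 1.43, 1.72, 0.801 and 0.612. In wild-type PTBP2 the window from 29.7 to 29.8 Mb also held 22 sites.

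Lsamp, the longest locus, was covered most in its 3′ part. Segment 4 held 53.1% of its intervals in FLAG loxP, 51.5% in FLAG Rosa-PTBP1, 47.3% in PTBP2 Rosa-PTBP1, 56.1% in wild-type PTBP2, 32.5% in wild-type FLAG 1 and 45.7% of 35 intervals in wild-type FLAG 2. The 20-kb bin 1620 to 1640 kb from the 5′ end held the most sites in FLAG loxP (49), FLAG Rosa-PTBP1 (61) and wild-type PTBP2 (32). In PTBP2 Rosa-PTBP1 this bin and the one before it, 1600 to 1620 kb, led with 18 sites each. All 4 PTBP libraries therefore had their highest count, tied in PTBP2 Rosa-PTBP1, in the same 20-kb bin of a 2.2-Mb locus.

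Negr1 was covered mostly at its 5′ end. Segment 1 held 90.1% of its intervals in FLAG loxP, 88.8% in FLAG Rosa-PTBP1, 72.1% in PTBP2 Rosa-PTBP1, 80.0% in wild-type PTBP2 and 48.2% in wild-type FLAG 1, and wild-type FLAG 2 listed none. A stretch of 354.6 kb in FLAG loxP, 270.5 kb in FLAG Rosa-PTBP1 and 307.1 kb in wild-type PTBP2 held no site at all. The longest empty stretch was 127.5 kb in PTBP2 Rosa-PTBP1 and 43.9 kb in wild-type FLAG 1. By sites the contrast was weaker, with 80.0% of the Negr1 sites in segment 1 in FLAG loxP, 83.2% in FLAG Rosa-PTBP1, 55.9% in PTBP2 Rosa-PTBP1, 64.9% in wild-type PTBP2 and 48.4% in wild-type FLAG 1.

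**Figure D2:**
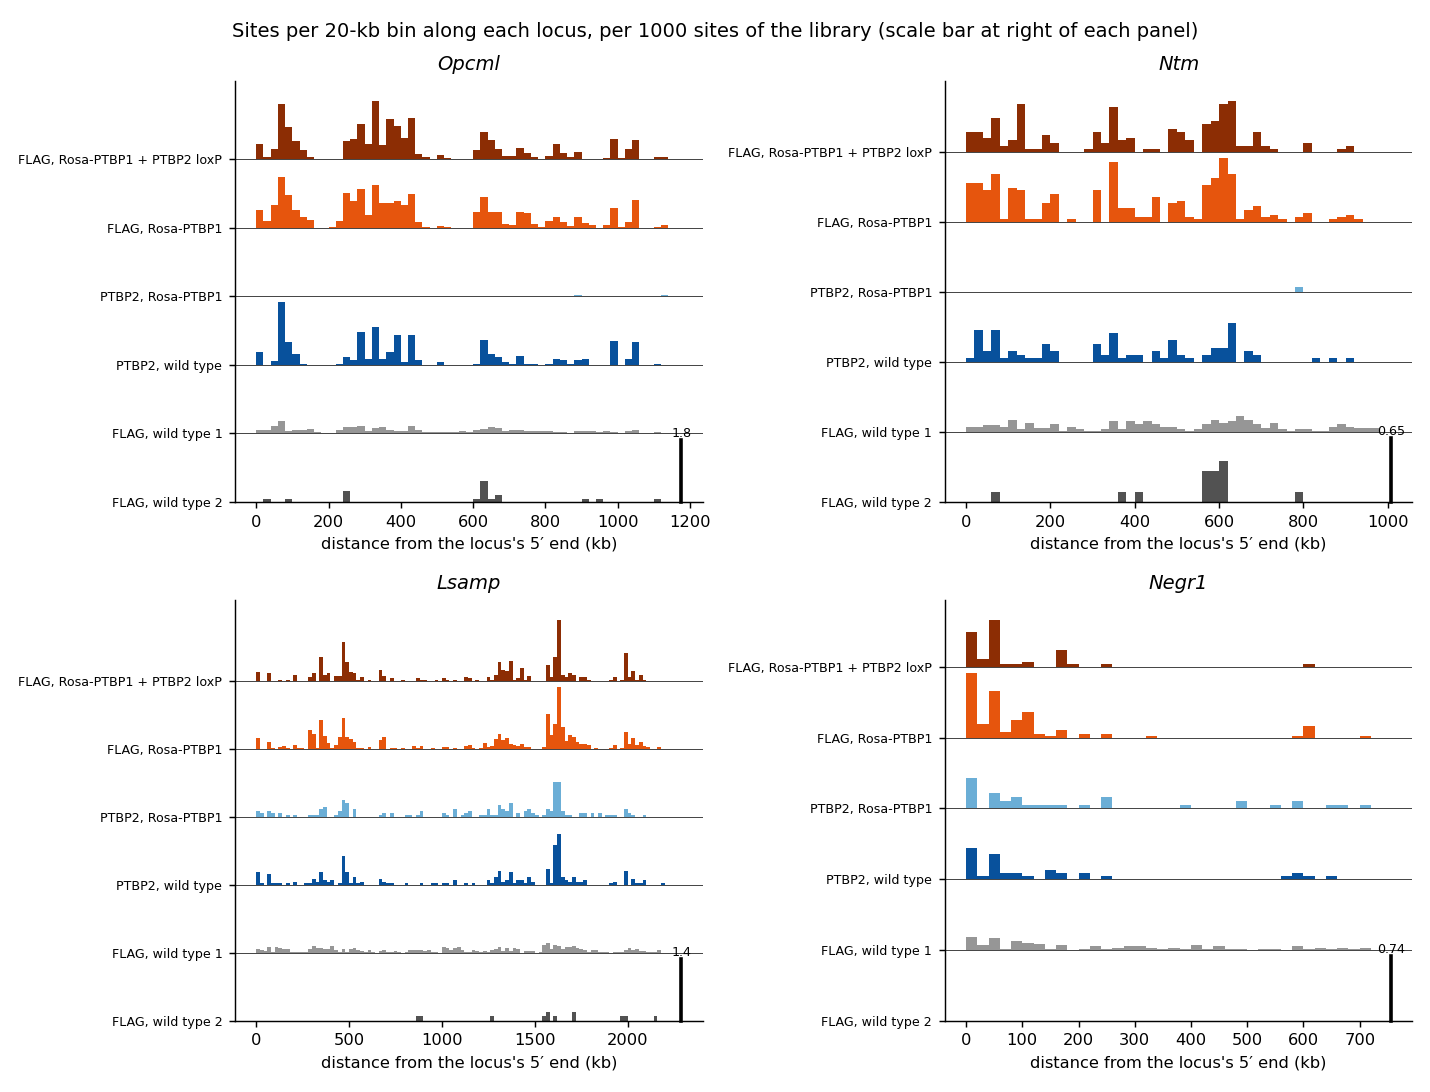
Sites per 20-kb bin along each locus from its 5′ end (kb), drawn per 1000 sites of each library, with a scale bar at the right of each panel; the 6 libraries run from FLAG loxP at the top to wild-type FLAG 2 at the bottom. FLAG loxP, FLAG Rosa-PTBP1 and wild-type PTBP2 share their high bins, with a 5′ concentration in Opcml and Negr1 and a peak near 1620 kb in Lsamp, while PTBP2 Rosa-PTBP1 is nearly empty in Opcml and Ntm.

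Across 20-kb bins the site counts of FLAG loxP and FLAG Rosa-PTBP1 had a Spearman correlation of 0.93 over the 57 bins of Opcml, 0.86 over 49 bins of Ntm, 0.84 over 110 bins of Lsamp and 0.78 over 37 bins of Negr1. FLAG loxP and wild-type PTBP2, from different runs, gave 0.90, 0.77, 0.76 and 0.66. FLAG Rosa-PTBP1 and wild-type FLAG 1 gave 0.75, 0.51, 0.53 and 0.51. Bins of a locus share a transcript and its base composition and are not replicates, so these values describe likeness of profile only. In all 4 genes wild-type FLAG 1 was less like the FLAG Rosa-PTBP1 profile than FLAG loxP was. By Pearson correlation this was close in Negr1, at 0.86 with wild-type FLAG 1 and 0.88 with FLAG loxP. Both FLAG-PTBP1 libraries were on the same run and wild-type FLAG 1 on others, and the part of the run was not tested.

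Merging the intervals of all 6 lists gave 3422 regions in the 4 loci, with 1225 in Opcml, 645 in Ntm, 1315 in Lsamp and 237 in Negr1. Of these, 1020 (29.8%) held only background intervals, against 45.8% of the regions of the whole series and 43.1% of those on chromosomes 3, 9 and 16. Regions with 5 or more intervals made up 42.7% of the IgLON regions, against 21.9% of all regions and 25.6% on chromosomes 3, 9 and 16. The loci were chosen by interval number in these lists, so nothing is read from these contrasts. The 5 regions with most intervals held 14.5% of the PTBP intervals of Opcml, 8.59% of those of Ntm, 26.0% of those of Lsamp and 34.3% of those of Negr1. The loci differ in their number of regions, and the order differed in PTBP2 Rosa-PTBP1, where the 5 regions held 30.7% in Lsamp and 25.0% in Negr1.

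The strongest Opcml region, chr9:27992488-27994692, spanned 2205 bases. It held 598 intervals in FLAG loxP, 571 in FLAG Rosa-PTBP1, 169 in wild-type PTBP2, 2 in wild-type FLAG 1 and 0 in wild-type FLAG 2. The region at chr9:27668632-27669575 held 242, 288, 177, 0 and 0. By contrast, chr9:27966604-27967881 held 254, 252, 22, 1 and 0, so the FLAG-PTBP1 counts of both regions were close while the PTBP2 count of the second was far smaller. The other Opcml regions among the leading 5 were chr9:27885315-27886089, with 222 intervals in FLAG loxP, 247 in FLAG Rosa-PTBP1 and 53 in wild-type PTBP2, and chr9:27670492-27671383, with 172, 197 and 80. Wild-type FLAG 1 held 2 and 5 intervals in these, and wild-type FLAG 2 held 0.

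The Lsamp regions could be followed in all 4 PTBP libraries. The strongest, chr16:41584577-41586515 (1939 bases), held 525 intervals in FLAG loxP, 563 in FLAG Rosa-PTBP1, 85 in PTBP2 Rosa-PTBP1, 222 in wild-type PTBP2, 10 in wild-type FLAG 1 and 0 in wild-type FLAG 2. The region chr16:41613321-41614199 held 140, 164, 82, 156, 3 and 0. Further downstream, chr16:41614870-41615456 held 105, 122, 9, 93, 0 and 0. In PTBP2 Rosa-PTBP1 the region at 41614870 was far below the one at 41613321 (9 against 82). In the other 3 PTBP libraries the counts of this pair were closer. The region chr16:40469556-40470198, far upstream, held 100, 98, 84, 71, 0 and 0, and chr16:41583819-41584538 held 135, 151, 14, 63, 0 and 0.

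The leading regions of Negr1 and Ntm were smaller. In Negr1, chr3:156276401-156276743 held 55 intervals in FLAG loxP, 50 in FLAG Rosa-PTBP1, 20 in PTBP2 Rosa-PTBP1, 39 in wild-type PTBP2 and 0 in both wild-type FLAG libraries. The region chr3:156240369-156240691 held 55, 63, 0 and 17 in the 4 PTBP libraries, with 2 in wild-type FLAG 1, and chr3:156241183-156241466 held 41, 45, 0 and 4. The upstream pair was thus listed at 0 in PTBP2 Rosa-PTBP1, although that library held intervals in the downstream region. In Ntm, chr9:29213063-29213403 held 42 intervals in FLAG loxP, 58 in FLAG Rosa-PTBP1 and 7 in wild-type PTBP2, and chr9:29155514-29155725 held 27, 36 and 2. An Ntm region with a different balance, chr9:29652564-29652676, held 17, 15 and 11. Both wild-type FLAG libraries were at 0 in these 3 Ntm regions.

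**Figure D3:**
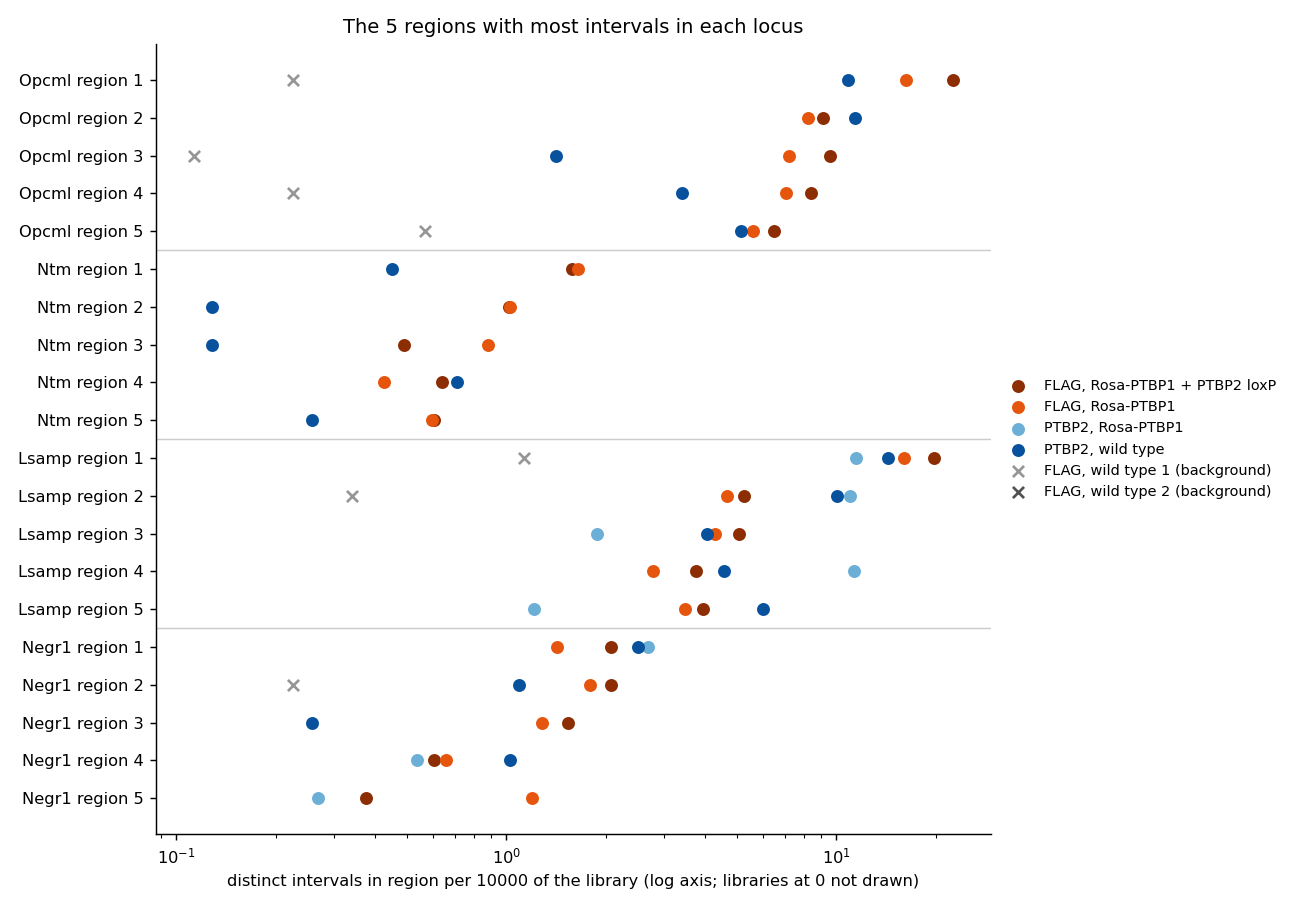
Distinct intervals per 10000 of each library (log axis) in the 5 regions with most PTBP intervals of each locus; circles are the PTBP libraries, crosses the wild-type FLAG libraries, and libraries at 0 are not drawn, which includes wild-type FLAG 2 in all 20 regions. FLAG loxP and FLAG Rosa-PTBP1 lie close together in most rows, and PTBP2 Rosa-PTBP1 varies most within Lsamp.

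The first comparison set FLAG-PTBP1 with PTBP2 loxP alleles against FLAG-PTBP1 without them, both in Rosa-PTBP1 Emx1-cre cortex and on the same run. On chromosomes filled in both libraries, the loci held 1276 sites, or 3.90%, in FLAG loxP and 1885 sites, or 4.39%, in FLAG Rosa-PTBP1. The log2 ratio of shares was -0.17 (-0.27 to -0.07), a share 0.888 times as large in FLAG loxP. By distinct intervals the shares were 5.78% in FLAG loxP and 5.80% in FLAG Rosa-PTBP1, and the ratio was -0.0061 (-0.04 to 0.02). Per gene by sites, the ratio was -0.05 (-0.20 to 0.10) in Opcml, -0.32 (-0.58 to -0.06) in Ntm, -0.19 (-0.38 to -0.01) in Lsamp and -0.70 (-1.22 to -0.21) in Negr1. By intervals it was 0.11 in Opcml, -0.40 in Ntm, -0.07 in Lsamp and -0.66 in Negr1. Ntm, Lsamp and Negr1 thus took a smaller share of FLAG loxP than of FLAG Rosa-PTBP1 by both units, while the sign of the Opcml ratio differed between units. With stacked sites only, the ratio was -0.07 (-0.20 to 0.06) for all 4 loci, -0.21 (-0.57 to 0.14) in Ntm, -0.02 (-0.27 to 0.23) in Lsamp and -0.86 (-1.60 to -0.20) in Negr1, so Negr1 was the gene whose interval excluded 0 there. Against the loci's own chromosomes the ratio was -0.07 (-0.17 to 0.03) for all 4 loci and -0.04 (-0.22 to 0.15) in Lsamp.

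A window or region was called when it held 20 or more sites or intervals in the libraries compared and its share differed by 2-fold or more. Of 33 IgLON windows of 100 kb, 1 was called higher in FLAG loxP and 4 lower, where 4.08% and 10.4% of all 834 windows were called. The higher one was Lsamp 41.4 to 41.5 Mb, with 15 sites in FLAG loxP and 9 in FLAG Rosa-PTBP1. The lower ones were Lsamp 40.2 to 40.3 Mb (9 and 36), Lsamp 41.7 to 41.8 Mb (7 and 21), Negr1 156.3 to 156.4 Mb (8 and 30) and Ntm 29.3 to 29.4 Mb (7 and 21). These windows are named because they are few, after their values were seen. Of 355 regions, 40 were called higher and 55 lower (11.3% and 15.5%), where 13.9% and 15.0% of all 5780 regions were. The IgLON calls were therefore near the background in both directions, and the median log2 ratio of the IgLON regions was 0.11, against 0.12 for all regions.

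Single regions differed more. The highest ratio was at Opcml chr9:27927905-27928024, with 19 intervals in FLAG loxP and 2 in FLAG Rosa-PTBP1 (13.4-fold, 3.23 to 119). Next came Opcml chr9:27694040-27694146 with 16 and 4, and Ntm chr9:29648875-29649102 with 19 and 5. The lowest were 3 Opcml regions listed at 0 in FLAG loxP, chr9:28362287-28362431, chr9:27617998-27618121 and chr9:27844517-27844745, with 29, 28 and 27 intervals in FLAG Rosa-PTBP1. A region below the unknown threshold of its list is absent from it, so a 0 does not show that no read was there.

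The second comparison set PTBP2 in Rosa-PTBP1 Emx1-cre cortex against PTBP2 in wild-type cortex, in Lsamp and Negr1 only. These held 216 sites, or 1.03%, in PTBP2 Rosa-PTBP1 and 296 sites, or 1.69%, in wild-type PTBP2. The ratio was -0.71 (-0.97 to -0.45), a share 0.611 times as large in PTBP2 Rosa-PTBP1. Lsamp gave -0.76 (-1.05 to -0.49) and Negr1 -0.38 (-1.09 to 0.33), so in Negr1 the difference was not detectable at this depth. By intervals the ratio of both genes was -0.41, and by stacked sites -0.26 (-0.77 to 0.21), which includes equal shares. Within run XA041 it was -0.79 (-1.08 to -0.51) and within run XB028 -0.26 (-0.56 to 0.03). The library from Rosa-PTBP1 cortex drew 72.9% of its lines from XA041 and the wild-type library 35.5%, and the part of the run mix in the pooled value was not tested.

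Of 8 IgLON windows 0 were called higher in PTBP2 Rosa-PTBP1 and 2 lower, where 1.08% and 40.4% of all 277 windows were. The lower ones were Lsamp 40.3 to 40.4 Mb, with 10 sites in PTBP2 Rosa-PTBP1 and 18 in wild-type PTBP2, and Lsamp 41.6 to 41.7 Mb, with 23 and 47. Of 20 regions 0 were called higher and 5 lower, where 9.61% and 25.8% of all 1218 regions were. The median log2 ratio of IgLON windows was -0.72, against -0.80 for all windows, so the lower IgLON share was of the size seen over all windows that passed the minimum.

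Within Lsamp the regions went both ways. The region chr16:40469556-40470198 held 84 intervals in PTBP2 Rosa-PTBP1 and 71 in wild-type PTBP2, a share 1.81 times as large (1.30 to 2.51). At chr16:41343896-41344376 the counts were 62 and 57 (1.66-fold, 1.14 to 2.42). The lowest ratio was at chr16:41614870-41615456, with 9 and 93 intervals, a share 0.148 times as large (0.0655 to 0.293). Next were chr16:40355132-40355241 with 2 and 22, and chr16:41583819-41584538 with 14 and 63. In Negr1, chr3:156276275-156276387 held 13 and 15, and its interval of 0.579 to 2.98 includes equal shares.

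The third comparison set FLAG-PTBP1 against PTBP2 in Rosa-PTBP1 Emx1-cre cortex. Lsamp and Negr1 held 696 sites, or 2.63%, in FLAG Rosa-PTBP1 and 216 sites, or 1.13%, in PTBP2 Rosa-PTBP1. The share was 2.32 times as large in FLAG Rosa-PTBP1 (log2 1.21, 0.99 to 1.44). Both genes went the same way, with 1.22 (0.98 to 1.47) in Lsamp and 1.17 (0.61 to 1.78) in Negr1. By intervals the pooled ratio was 0.74 (0.64 to 0.84), or 1.67-fold, and by stacked sites Lsamp stood at 0.36 (-0.08 to 0.86), which includes equal shares. Of 13 windows 11 were called higher in FLAG Rosa-PTBP1 and 0 lower, where 57.1% and 1.35% of all 443 windows were. Of 58 regions 36 were called higher and 6 lower, where 51.0% and 16.9% of all 2295 regions were. The median log2 ratio was 1.67 in IgLON windows against 1.18 in all windows, and 1.94 in IgLON regions against 0.95 in all regions. Windows and regions can reach the minimum through FLAG Rosa-PTBP1 alone, the deeper library. The loci were also chosen by interval number in these lists. Nothing is therefore read from the direction of these window and region calls or their medians. The antibodies and runs also differed between these libraries, and protein, antibody and run cannot be told apart.

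The regions with the highest ratio were listed at 0 in PTBP2 Rosa-PTBP1: Negr1 chr3:156240369-156240691 with 63 intervals in FLAG Rosa-PTBP1, Negr1 chr3:156241183-156241466 with 45, and Lsamp chr16:41723086-41723274 with 43. The first 2 were in wild-type PTBP2 at 17 and 4 intervals and the third at 8, so none of them was without PTBP2 intervals in the series. The lowest ratio was at Negr1 chr3:156276275-156276387, with 7 intervals in FLAG Rosa-PTBP1 and 13 in PTBP2 Rosa-PTBP1 (0.149-fold, 0.0503 to 0.402). At Lsamp chr16:41343896-41344376 the counts were 46 and 62 (0.205-fold), and at Lsamp chr16:40701052-40701234 16 and 19 (0.233-fold). Of 9 Negr1 regions 5 were called higher in FLAG Rosa-PTBP1 and 1 lower, and of 49 Lsamp regions 31 and 5. Both directions thus lay within the same gene, as both were also seen over all regions (51.0% and 16.9%).

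The fourth comparison set FLAG-PTBP1 in Rosa-PTBP1 Emx1-cre cortex with PTBP2 loxP alleles against native PTBP2 in wild-type cortex. Protein, antibody, genotype and run all differed between these libraries and cannot be told apart. All 4 loci could be used, and they held 1276 sites, or 3.66%, in FLAG loxP and 741 sites, or 2.70%, in wild-type PTBP2. The share was 1.35 times as large in FLAG loxP (log2 0.44, 0.31 to 0.57). The ratio was 0.54 (0.34 to 0.73) in Opcml, 0.64 (0.29 to 1.00) in Ntm, 0.25 (0.02 to 0.48) in Lsamp and 0.08 (-0.55 to 0.74) in Negr1. By intervals Opcml stood at 1.00 (0.94 to 1.06), or 2.00-fold, against 0.63 in Ntm, 0.16 in Lsamp and 0.20 in Negr1. The largest ratio was thus in Ntm by sites and in Opcml by intervals. Opcml held 1.82% of sites in FLAG loxP against 1.26% in wild-type PTBP2. With stacked sites only, the Opcml ratio was 0.21 (-0.03 to 0.46), which includes equal shares.

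Of 26 windows 4 were called higher in FLAG loxP and 0 lower, where 20.2% and 3.79% of all 634 windows were. They were Lsamp 41.9 to 42 Mb (29 sites in FLAG loxP and 11 in wild-type PTBP2), Opcml 27.7 to 27.8 Mb (29 and 10), Ntm 29.2 to 29.3 Mb (29 and 11) and Ntm 29.6 to 29.7 Mb (25 and 8). By regions the picture differed: of 182 regions 83 were called higher (45.6%) and 13 lower (7.14%), where 26.8% and 19.2% of all 3587 regions were. Opcml supplied 66 of the 83 and 6 of the 13, from 124 regions, and Lsamp 12 and 5 from 42. The median log2 ratio was 1.02 in Opcml regions, 0.27 in Lsamp, 0.18 in Ntm and -0.29 in the 5 Negr1 regions, against 0.04 for all regions. Regions can reach 20 intervals through FLAG loxP alone, the deeper library, and the loci were chosen by interval number in these lists. No gene-level result is therefore read from these region values. By windows 1 of 10 was called higher in Opcml, where 20.2% of all windows were.

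The highest ratios were at 3 Opcml regions listed at 0 in wild-type PTBP2. They were chr9:27991045-27991488 with 65 intervals in FLAG loxP, chr9:28213834-28214134 with 43 and chr9:27887786-27888033 with 39, and FLAG Rosa-PTBP1 held 81, 67 and 46 intervals in them. The lowest was Opcml chr9:28269790-28269951, with 0 intervals in FLAG loxP and 20 in wild-type PTBP2, which was the only library to list it. Opcml chr9:28229585-28229853 held 7 and 26 (0.157-fold, 0.0576 to 0.372), while FLAG Rosa-PTBP1 held 43 there. Lsamp chr16:40443562-40443793 held 6 and 22.

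**Figure D4:**
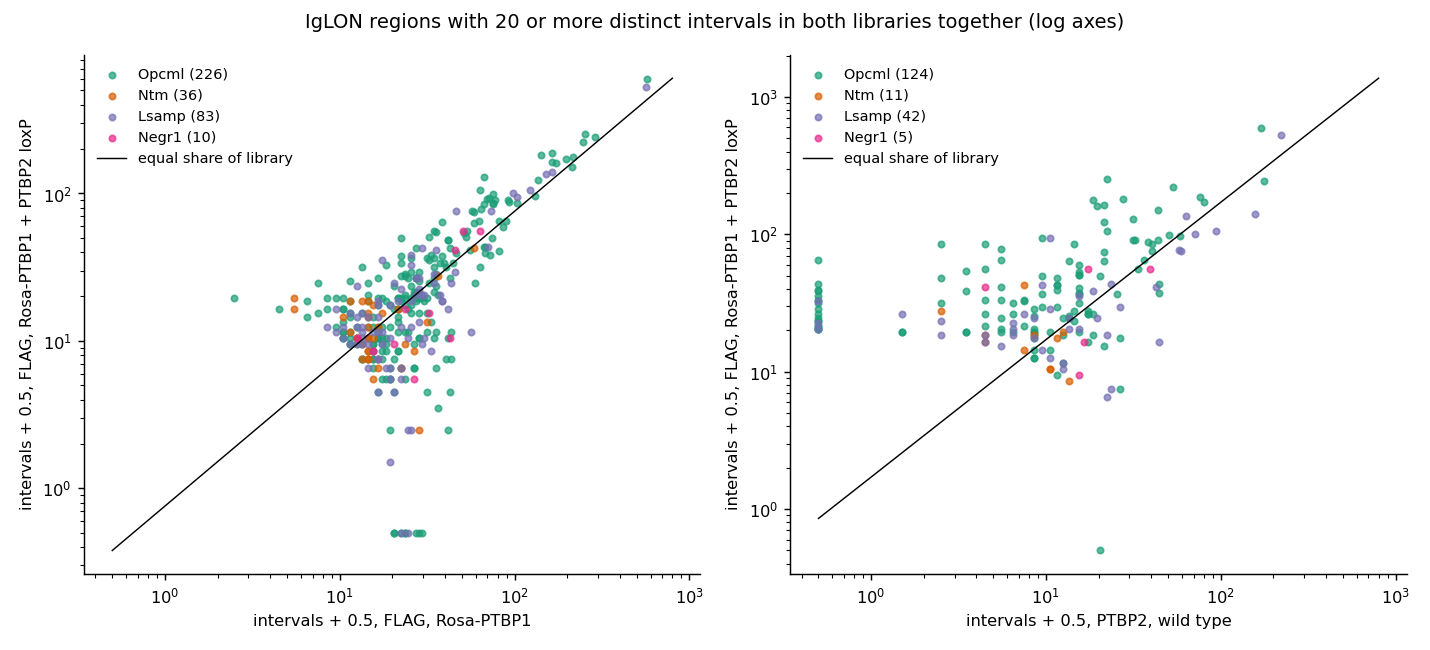
Distinct intervals plus 0.5 per IgLON region (log axes) in FLAG loxP on the vertical axis, against FLAG Rosa-PTBP1 (left, 355 regions) and wild-type PTBP2 (right, 182 regions); colours are genes and the line marks an equal share of both libraries. The left panel scatters on both sides of the line, with 40 regions called higher and 55 lower. In the right panel 66 of 124 Opcml regions were called higher, where 26.8% of all regions were. Regions there can reach the minimum through FLAG loxP alone.

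The fifth comparison set FLAG-PTBP1 in Rosa-PTBP1 Emx1-cre cortex against the FLAG background of wild-type cortex. The loci held 1885 sites, or 4.39%, in FLAG Rosa-PTBP1, against 1190 sites, or 1.71%, in wild-type FLAG 1 and 44 sites, or 0.484%, in wild-type FLAG 2. The share was 4.01 times the mean of the background libraries, but the size depended on the library: 2.57-fold (2.39 to 2.77) against wild-type FLAG 1 and 9.08-fold (6.73 to 12.5) against wild-type FLAG 2, from the same run. Against wild-type FLAG 1 the fold was 3.72 in Opcml, 2.48 in Ntm, 1.89 in Lsamp and 1.87 in Negr1. Against wild-type FLAG 2 it was 10.2, 4.92 and 10.4, and Negr1 was listed at 0 there. Opcml and Negr1 thus differed in how far they stood above wild-type FLAG 1, with intervals of 3.29 to 4.21 and 1.40 to 2.49 for counting error that do not overlap.

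Of 40 windows 31 were called higher in FLAG Rosa-PTBP1 and 1 lower, where 47.8% and 12.5% of all 1372 windows were. The lower one was Lsamp 41.0 to 41.1 Mb, with 3 sites in FLAG Rosa-PTBP1, 35 in wild-type FLAG 1 and 0 in wild-type FLAG 2. By regions 209 of 215 were called higher and 0 lower, where 91.9% and 4.8% of all 3143 regions were, and most regions reach 20 intervals through the deeper FLAG Rosa-PTBP1 library, so nothing is read from that count. The 3 IgLON regions with the lowest ratios had a FLAG Rosa-PTBP1 share slightly below the mean background share. Opcml chr9:28228791-28228957 held 28 intervals in FLAG Rosa-PTBP1, 0 in wild-type FLAG 1 and 5 in wild-type FLAG 2 (0.818-fold). Lsamp chr16:41540828-41540905 held 19, 0 and 3 (0.925-fold), and Ntm chr9:29214744-29214912 held 26, 0 and 4 (0.949-fold).

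The sixth comparison set native PTBP2 against the same wild-type FLAG libraries, with no transgene in either group. The loci held 741 sites, or 2.70%, in wild-type PTBP2, 1190 sites, or 1.62%, in wild-type FLAG 1 and 44 sites, or 0.460%, in wild-type FLAG 2. The share was 1.67 times that of wild-type FLAG 1 (1.52 to 1.83) and 5.86 times that of wild-type FLAG 2 (4.32 to 8.14). Against wild-type FLAG 1 the fold was 2.45 in Opcml (2.11 to 2.84), 1.26 in Ntm (0.981 to 1.60), 1.37 in Lsamp and 1.06 in Negr1. By intervals the Ntm share in wild-type PTBP2 was 0.889 times that of wild-type FLAG 1 (0.759 to 1.04). Against wild-type FLAG 2 Ntm stood at 2.49-fold by sites (1.41 to 4.71) and 1.52-fold by intervals (1.12 to 2.11), and Negr1 was listed at 0 there. For Ntm and Negr1 a PTBP2 share above wild-type FLAG 1 was therefore not detectable, and a share above wild-type FLAG 2 was. Ntm had 33 stacked sites in wild-type PTBP2 and 3 in wild-type FLAG 1, and Negr1 had 14 and 1. Over the whole lists 9652 of 27469 sites were stacked in wild-type PTBP2 and 402 of 73519 in wild-type FLAG 1. The stacking thus differed between the whole lists, and nothing is read from it about these genes. The fifth and sixth comparisons share the wild-type FLAG libraries.

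Of 39 windows 20 were called higher in wild-type PTBP2 and 2 lower, where 38.7% and 16.8% of all 1154 windows were. The lower ones were Lsamp 40.8 to 40.9 Mb, with 1 site in wild-type PTBP2, 21 in wild-type FLAG 1 and 2 in wild-type FLAG 2, and Ntm 28.8 to 28.9 Mb, with 1, 19 and 1. By regions 49 of 49 were called higher and 0 lower, where 90.8% and 5.49% of all 1221 regions were, and nothing is read from that count either. The region furthest above background was Opcml chr9:27668632-27669575, with 177 intervals in wild-type PTBP2 and 0 in both wild-type FLAG libraries.

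Sites were also compared by position, counting a site as shared when it overlapped a site of the other library by 1 base or more on the same strand. Of the IgLON sites of FLAG loxP, 66.0% (63.3 to 68.6) lay on a site of FLAG Rosa-PTBP1, and 45.0% (42.8 to 47.3) of those of FLAG Rosa-PTBP1 on a site of FLAG loxP. On the rest of the same chromosomes the shares were 46.6% and 35.7%. By gene, 74.1% of the FLAG loxP sites were shared in Opcml, 54.5% in Ntm, 58.9% in Lsamp and 64.0% in Negr1. Of the sites of FLAG loxP 32.3% lay on a site of wild-type PTBP2, and 59.2% of those of wild-type PTBP2 on a site of FLAG loxP, against 26.2% and 33.6% on the rest. The share of wild-type PTBP2 sites on a FLAG loxP site was 73.9% in Opcml, 51.7% in Lsamp, 43.2% in Negr1 and 34.0% in Ntm. Site density differs between these loci and the rest of the genome and its part in these shares was not tested.

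In Lsamp and Negr1, 36.1% of the PTBP2 Rosa-PTBP1 sites lay on a wild-type PTBP2 site and 26.7% of the wild-type PTBP2 sites on a PTBP2 Rosa-PTBP1 site. The rest of the chromosomes gave 17.7% and 20.7%. Between the proteins in Rosa-PTBP1 cortex, 13.9% of the FLAG-PTBP1 sites lay on a PTBP2 site, close to the 14.5% of the rest, and 45.4% of the PTBP2 sites lay on a FLAG-PTBP1 site, against 20.3%. Of the FLAG Rosa-PTBP1 sites 8.12% lay on a site of wild-type FLAG 1 and 1.06% on a site of wild-type FLAG 2, against 6.29% and 2.01% of the rest. Of the wild-type PTBP2 sites 7.42% lay on a site of wild-type FLAG 1, against 6.01%.

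**Figure D5:**
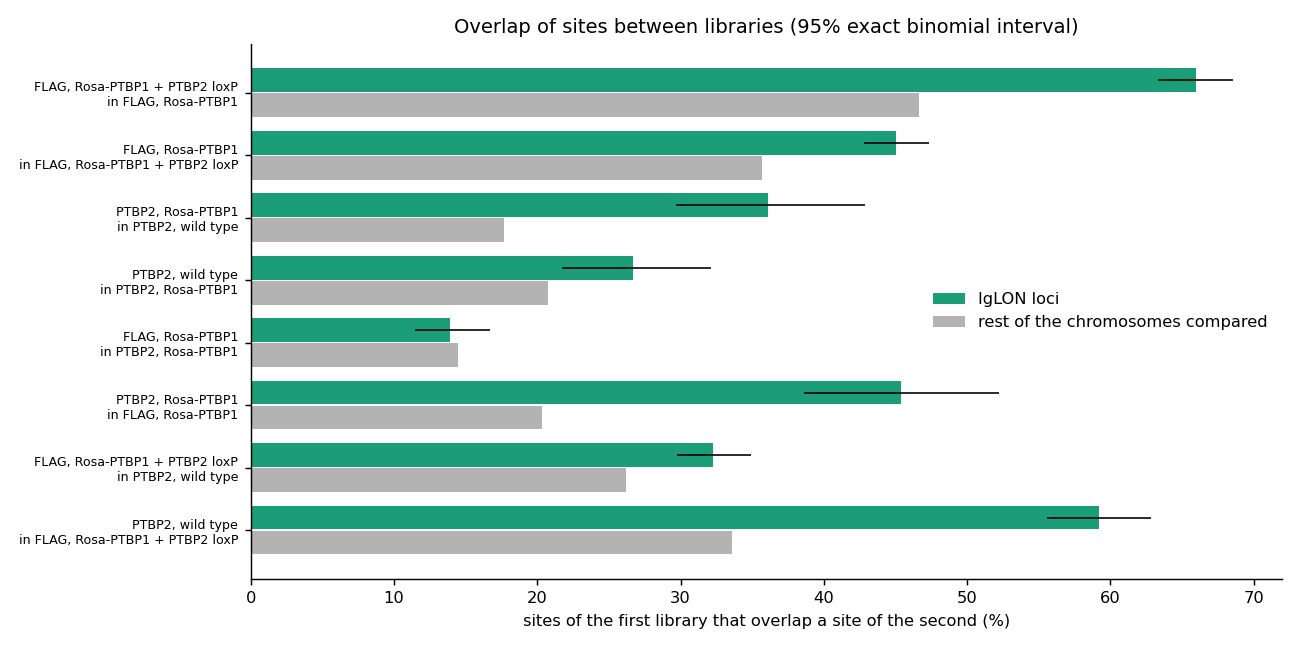
Percent of the sites of the first-named library that overlap a site of the second by 1 base or more, in the IgLON loci (green, with exact binomial 95% intervals) and on the rest of the chromosomes compared (grey). Among the pairs drawn, which leave out those with the wild-type FLAG libraries, the IgLON bar is longer except for FLAG Rosa-PTBP1 in PTBP2 Rosa-PTBP1, where it is 13.9% against 14.5%.

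In Lsamp and Negr1, 113 regions had 20 or more intervals in the 4 PTBP libraries together. Of these, 44 (38.9%) were listed in all 4, against 37.6% of the 4679 such regions on all filled chromosomes. FLAG-PTBP1 alone listed 27 of them (23.9%) and PTBP2 alone 0, against 20.8% and 0.556% of all such regions, so these shares were near the background. In Opcml and Ntm, judged over the 3 libraries with a filled chromosome 9, 163 of 286 such regions (57.0%, 51.0 to 62.8) were listed in all 3, against 68.2% of 4384. Here 111 regions (38.8%) were listed by FLAG-PTBP1 alone, against 26.7% of all such regions, and 1, the Opcml region at 28269790, by wild-type PTBP2 alone. Regions reach 20 intervals mostly through the deep FLAG-PTBP1 libraries, so nothing is read from the counts of regions listed by 1 protein alone.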

How the data were processed

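CLIP-seq (ultraviolet crosslinking at 400 mJ/cm2, immunoprecipitation and sequencing) was done on 6 libraries in 5 groups; complexes between 80 and 110 kDa were taken, per the labels' protocols. Reads were aligned with Bowtie to mm9, per the submitters' processing notes. The deposited lists hold read intervals (chromosome, start, end, strand and read name), with no score, count or gene name. The headers of the 3 run WA047 lists name significant reads, and those of the other 3 name combined data. The peak caller, its threshold and its control were not given in the sources used here. A deposited interval can be on several lines (1.06 to 4.26 lines per interval); lines were collapsed to distinct intervals.

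Sites, stacked sites and regions were built in Python 3.11.15 with pandas 2.3.3, numpy 2.4.6 and scipy 1.17.1, and figures with matplotlib 3.10.9. Shares use chromosomes filled in the libraries compared; a chromosome with a share of sites below 0.5 times the median of the other libraries was left out (10 in FLAG Rosa-PTBP1; 4, 5, 6, 7, 8, 9 and X in PTBP2 Rosa-PTBP1). Log2 ratios of shares have a pseudocount of 0.5 and an exact conditional binomial 95% interval; against both wild-type FLAG libraries the mean share was used. Folds are without the pseudocount. The code was tested on simulated data.

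Named regions were the 5 with most PTBP intervals per locus and, per comparison, the 3 highest and 3 lowest ratios among regions with 20 or more intervals. Named windows were those with most sites per locus. Members, lists and rules were chosen with earlier results of these data known. A list of related adhesion genes could not be placed in mm9 and was not analysed here.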

Additional observations from a re-analysis of the deposited data

How the results depend on the processing

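Ratios are log2 of shares of sites unless said otherwise, and the cause of the changes below was not tested. No ratio whose main interval, by sites, excluded 0 changed sign. Among ratios whose main interval took in 0, some did. Opcml in the loxP comparison was -0.05 by sites and 0.11 (0.07 to 0.15) by distinct intervals. The loxP comparison of FLAG-PTBP1 (-0.17) was -0.0061 by distinct intervals and -0.021 by deposited lines. PTBP2 in Rosa-PTBP1 against wild-type cortex (-0.71) was -0.41 by intervals, -0.26 by stacked sites, -0.26 on run XB028 alone and -1.48 with all chromosomes and all 4 loci, which takes in the nearly empty chromosome 9. FLAG-PTBP1 against PTBP2 in Rosa-PTBP1 cortex (1.21) was 0.74 by intervals, 0.89 by lines, 0.47 by stacked sites, 0.90 against the loci's own chromosomes and 2.18 with all chromosomes. FLAG loxP against wild-type PTBP2 (0.44) was 0.70 by intervals, 0.73 by lines and 0.21 by stacked sites. Leaving out 1 wild-type FLAG library moved FLAG Rosa-PTBP1 against background between 1.36 and 3.17, and wild-type PTBP2 between 0.74 and 2.54. In the loxP comparison the interval of Ntm also took in 0 with intervals up to 50 bases apart merged (-0.25, -0.53 to 0.03), and with 100 kb cut from each end those of Ntm (-0.22, -0.52 to 0.07) and Lsamp (-0.19, -0.38 to 0.0040) did. By stacked sites, few in the background, FLAG Rosa-PTBP1 against background was 0.28 in Ntm and 0.31 in Negr1, and wild-type PTBP2 -0.76 and -0.54.

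Requiring overlap of 0.5 of the shorter site moved the shared sites to 61.1% of FLAG loxP in FLAG Rosa-PTBP1, 41.5% in reverse, 29.0% of FLAG loxP in wild-type PTBP2, 6.68% of FLAG Rosa-PTBP1 in wild-type FLAG 1 and 11.1% in reverse. With stacked sites only, the shares were 72.1% of FLAG loxP in FLAG Rosa-PTBP1, 69.4% of PTBP2 Rosa-PTBP1 in wild-type PTBP2, 9.49% of FLAG Rosa-PTBP1 in PTBP2 Rosa-PTBP1 and 79.6% in reverse. On the rest of the same chromosomes these were 58.2%, 64.2%, 11.2% and 68.2%. Of stacked wild-type PTBP2 sites 69.1% lay on FLAG loxP, against 54.0% on the rest, and 27.0% on PTBP2 Rosa-PTBP1, against 27.0%. Of stacked FLAG loxP sites 31.0% lay on wild-type PTBP2, against 29.4%. Against the background the stacked shares were 0.243% of FLAG Rosa-PTBP1 in wild-type FLAG 1 and 40% in reverse, 0.324% of FLAG Rosa-PTBP1 in wild-type FLAG 2, and 0.267% of wild-type PTBP2 in wild-type FLAG 1 and 20% in reverse, the reverse shares over 5 sites. Over all loci 52 of 81 values stayed within the interval of the value in the report, and so did 159 of 176 values of single genes. Some of these values could not fall outside it. Both libraries of the loxP comparison lay wholly on run WA047, so keeping only that run repeated the main value. Against background the interval spanned those of both wild-type FLAG libraries, so leaving out 1 of them always stayed inside. The counts are therefore not read as a measure of stability.

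No paired analysis was possible because only the wild-type FLAG libraries carry replicate numbers. FLAG loxP and wild-type PTBP2, and both Rosa-PTBP1 libraries, share no run, so no within-run value was had. The lists hold only what passed an unknown threshold, and the 6 libraries differ in depth by an order of magnitude, which limits statements on regions listed at 0.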

Other observations

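Read intervals with the same start and end in both libraries were rare. Of the IgLON intervals of FLAG loxP, 466 (3.24%) were also listed in FLAG Rosa-PTBP1, which is 2.29% of the intervals there. FLAG loxP shared 106 identical intervals with wild-type PTBP2 (0.737%) and 1 with wild-type FLAG 1.

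The median gap between neighbouring Opcml sites was 118 bases in FLAG loxP, 109 in FLAG Rosa-PTBP1 and 185 in wild-type PTBP2, against 1655 in wild-type FLAG 1. In Lsamp it was 278, 293 and 1052 bases in the same PTBP libraries, 2782 in PTBP2 Rosa-PTBP1 and 2183 in wild-type FLAG 1. Sites of FLAG-PTBP1 thus lay in close runs in both genes, at a spacing far below that of the background library, which listed 377 sites in Opcml and 507 in Lsamp.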
